A study of Mus musculus with 6 samples.

Results

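The genes described are the mouse receptors for the constant part of IgG, Fcgr1, Fcgr2b, Fcgr3 and Fcgr4, together with Fcer1g and Syk, which carry their signal into the cell. They were chosen by name from the table of all genes after Fcgr1 had been seen to be among its most stable increases. The values that selected them are thus the ones given here, and no p-value is given for them. Their calls in the fit over all genes are counted below as description only. All 6 were found among the 15415 listed genes, and all 6 had a mean of at least 1 FPKM (reads per unit of gene length and of sequencing depth) in one group, as 9030 genes had.

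RNA was sequenced from peritoneal macrophages (PEMs), which were elicited with starch, in 6 libraries. The 3 knockout libraries are of the genotype LysM-Cre; Tim-4 fl/fl and the 3 control libraries of the genotype Tim-4 fl/fl. Both groups carry floxed Tim-4 on a C57BL/6J background, and the knockout mice also carry Cre in the lysozyme gene Lyz2, which deletes in myeloid cells. The control mice carry no Cre, so the effect of Cre and the loss of Tim-4 cannot be told apart. The mice were male and, by the age range in the study's methods, young adults. The labels list lps as the treatment of every library and attach the knockout genotype to the libraries titled as controls and the reverse, so that grouping followed the titles. The sources used here do not say from which or how many mice the sequenced libraries came, so the p-values below measure only the spread between these libraries.

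Timd4, which encodes Tim-4, measured 0.334, 0.394 and 0.246 FPKM in knockouts 1, 2 and 3 against 19.5, 12.0 and 1.19 FPKM in controls 1, 2 and 3, with control library 3 far below the other controls. Lyz2 measured 41.4, 4656 and 106 FPKM in the knockouts against 7090, 7171 and 8482 FPKM in the controls, so that knockout library 2 stood apart from the other knockouts. Neither gene passed the threshold (adjusted p = 0.0715 for Timd4 and 0.103 for Lyz2, limma), though Timd4 did with a pseudocount of 0.1 (adjusted p = 0.0458, limma), with the replicate block (0.0436) and without control library 3 (0.00041). Lyz2 did so without knockout library 2, at a log2 value of -6.81 in place of -4.77 (adjusted p = 0.00552, limma). Of 8 macrophage markers, Adgre1, Cd68, Csf1r and Itgam were at 83.3 FPKM or more in every library, while Mertk ranged from 0.821 to 12.1 FPKM, Cd14 and Csf1r were lower in each knockout than in each control library (adjusted p = 0.0631 and 0.0903, limma), Cd68 was above in each (adjusted p = 0.0989, limma) and Mrc1 was the 1 called higher (adjusted p = 0.0326, limma). Their sum, in which Lyz2 is the highest gene, was 2701 to 7286 FPKM in the knockouts and 9404 to 11183 FPKM in the controls. Several lists of markers of other cells differed between the groups. The NK cell and dendritic cell lists, with 1 tested gene each, gave 0 calls with limma. The NK cell markers found summed to 0.086 to 0.368 FPKM in the knockouts against 0.055 to 2.295 FPKM in the controls, which overlapped. The dendritic cell markers summed to 2.676 to 6.475 against 7.760 to 11.353 FPKM. Of the tested B cell markers 8 of 9 were lower in the knockouts with limma, of the mast cell markers 5 of 6, of the large peritoneal macrophage markers 6 of 9, of the monocyte-derived macrophage markers 2 of 8, of the neutrophil markers 2 of 6 and of the T cell markers 1 of 2. The summed level of 11 B cell markers was 11.8 to 13.0 FPKM in the knockout and 39.6 to 144 FPKM in the control libraries, that of 9 mast cell markers 9.46 to 17.0 against 47.1 to 54.7 FPKM, and that of 10 large peritoneal macrophage markers 11.3 to 25.2 against 102 to 281 FPKM. The 10 monocyte-derived macrophage markers summed to 592 to 1334 against 1014 to 5284 FPKM, and the 8 neutrophil markers found to 109 to 230.3 against 232 to 479 FPKM. The 9 T cell markers found summed to 1.39 to 1.93 against 3.05 to 11.4 FPKM. No listed marker was at 0 in every library, an outcome fixed in advance, since the smallest mean count listed was 1.11. Markers that were not listed at all included Ighm, Trac, Ly6g, Mpo, Elane, Ncr1 and Prf1.

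Mouse macrophages read IgG-coated particles through activating and inhibitory Fc gamma receptors. Fcgr1 encodes the high-affinity receptor FcγRI, which binds IgG2a without prior clustering, while Fcgr3 and Fcgr4 encode FcγRIII and FcγRIV, which bind IgG within immune complexes. None of these activating receptors signals through its own tail: each pairs with the FcR gamma chain encoded by Fcer1g, whose immunoreceptor tyrosine-based activation motif (ITAM) is phosphorylated by Src family kinases and then holds the kinase Syk. FcγRIIB, the product of Fcgr2b, carries an inhibitory motif in its own tail and recruits the lipid phosphatase SHIP1, encoded by Inpp5d. The ratio of activating to inhibitory receptors sets how readily immune complexes trigger the cell.

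The promoters of Fcgr1 and Fcgr4 are shown because these were the receptors whose levels differed most between the groups. They are the 250 bases before the annotated start in RefSeq, build GRCm38.p6, written 5′ to 3′ on the strand of the gene, at chr3:96293970-96294219 (minus strand) for Fcgr1 and at chr1:171018676-171018925 (plus strand) for Fcgr4. Capitals mark every match, on either strand, to the interferon gamma-activated site TTCNNNGAA, the PU.1-type purine box GAGGAA and the interferon-stimulated response element GAAANNGAAA, none of which overlapped another.
Fcgr1: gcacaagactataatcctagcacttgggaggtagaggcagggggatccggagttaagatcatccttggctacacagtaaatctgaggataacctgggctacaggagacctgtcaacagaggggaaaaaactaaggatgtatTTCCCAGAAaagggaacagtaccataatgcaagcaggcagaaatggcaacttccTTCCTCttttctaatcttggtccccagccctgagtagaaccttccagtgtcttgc
Fcgr4: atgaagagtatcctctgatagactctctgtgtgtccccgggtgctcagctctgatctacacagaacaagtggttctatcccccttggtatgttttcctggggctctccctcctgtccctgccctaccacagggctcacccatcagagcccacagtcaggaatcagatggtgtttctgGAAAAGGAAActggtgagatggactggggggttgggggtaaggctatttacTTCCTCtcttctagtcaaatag
Fcgr1 held TTCCCAGAA, a match to the first motif, from 109 to 101 bases before the start, and the purine box on the other strand (TTCCTC) from 55 to 50 bases before it. In Fcgr4 the response element GAAAAGGAAA lay from 73 to 64 bases before the start and the purine box, again on the other strand, from 22 to 17 bases before it. Among 32817 promoter windows of this length in the same reference, TTCNNNGAA was found in 7.0%, GAGGAA in 23.3% and GAAANNGAAA in 3.0%. Of the other members, Fcgr3 held the purine box in both of its annotated promoters, whose windows overlap, so that both matches are the same site. Syk held it in 1 of 2, and the windows of Fcgr2b and Fcer1g held none of the 3 motifs. These matches describe letters, and binding was not measured.

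Taking the libraries of each group in the order 1 to 3, here and below, Fcgr1 (Entrez 14129) measured 50.2, 57.5 and 36.1 FPKM in the knockouts against 5.16, 5.76 and 6.58 FPKM in the controls. The groups did not overlap, and the lowest knockout library stood 5.49-fold above the highest control library. The means were 47.9 ± 10.9 FPKM in the knockout and 5.83 ± 0.713 FPKM in the control group (SD, n = 3 each), a ratio of 8.22, and the difference of mean log2(FPKM + 1) was 2.82 (standard error 0.19). In reads, these levels rest on 5461, 6288 and 3824 in the knockout and on 527, 581 and 616 in the control libraries. Counting error alone was narrow beside the difference, at 4.73 to 5.62 FPKM for control library 1 (exact 95% Poisson interval, which covers counting error only). Among the tested genes, the mean of Fcgr1 stood at percentile 42.3 in the control group and at percentile 86.4 in the knockout group, and a single gene had a larger positive difference.

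Fcgr4 (Entrez 246256) measured 33.9, 53.8 and 37.2 FPKM in the knockouts against 14.8, 10.5 and 8.18 FPKM in the controls. Again all knockouts lay above all controls, by at least 2.30-fold. The means were 41.6 ± 10.7 and 11.1 ± 3.34 FPKM (SD, n = 3 each), a ratio of 3.74, with a log2 difference of 1.82 (standard error 0.25). There were 20 genes with a larger positive difference. Both genes were highest in knockout library 2, the one that kept Lyz2 transcript, and without it the log2 differences were 2.68 for Fcgr1 and 1.62 for Fcgr4. They ran in opposite order among the controls, since control library 3 was the highest for Fcgr1 and the lowest for Fcgr4.

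Fcgr3 (Entrez 14131) differed far less. It measured 50.4, 53.8 and 52.1 FPKM in the knockouts against 48.6, 42.5 and 35.5 FPKM in the controls, and although the groups did not overlap, the lowest knockout library exceeded the highest control library by only 1.04-fold. The means were 52.1 ± 1.70 and 42.2 ± 6.55 FPKM (SD, n = 3 each), with a log2 difference of 0.31 (standard error 0.15) that fell to 0.19 without control library 3. Part of this gene cannot be told from its neighbour by sequence: 10.2% of the 50-base runs in its protein-coding transcripts (GENCODE) also occur in Fcgr2b, and how reads in such stretches were assigned is not given in the sources used here. Fcgr1, Fcgr4, Fcer1g and Syk shared no such run with another gene.

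The inhibitory receptor gene Fcgr2b (Entrez 14130) had the highest FPKM of the receptors in all 6 libraries. It measured 378, 253 and 367 FPKM in the knockouts against 351, 332 and 407 FPKM in the controls, so the groups overlapped, with knockout library 2 the lowest of all and control library 3 the highest. The means were 333 ± 68.9 and 364 ± 38.9 FPKM (SD, n = 3 each), and the log2 difference of -0.14 (standard error 0.19) turned to 0.04 without knockout library 2 and to 0.0018 after rescaling by the median of ratios. B cells also express Fcgr2b, and the B cell marker sums differed between the groups as given above. Their part in the level of Fcgr2b was not tested.

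The levels of both signalling genes overlapped between the groups. Fcer1g (Entrez 14127) measured 996, 969 and 1015 FPKM in the knockouts against 910.4, 742 and 1061 FPKM in the controls, with means of 993 ± 23.0 and 904 ± 159 FPKM (SD, n = 3 each). Its log2 difference was 0.15 (standard error 0.16) and went to 0.02 without control library 2. Syk (Entrez 20963) measured 79.5, 75.4 and 86.6 FPKM in the knockouts against 58.3, 67.0 and 109.8 FPKM in the controls, with means of 80.5 ± 5.67 and 78.4 ± 27.5 FPKM (SD, n = 3 each). For Syk the knockout values lay inside the range of the controls, and the log2 difference of 0.09 (standard error 0.23) went from -0.09 without control library 1 to 0.36 without control library 3. In both genes the controls varied more than the knockouts, with a coefficient of variation of 17.6% against 2.31% for Fcer1g and of 35.1% against 7.04% for Syk.

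**Figure D1:**
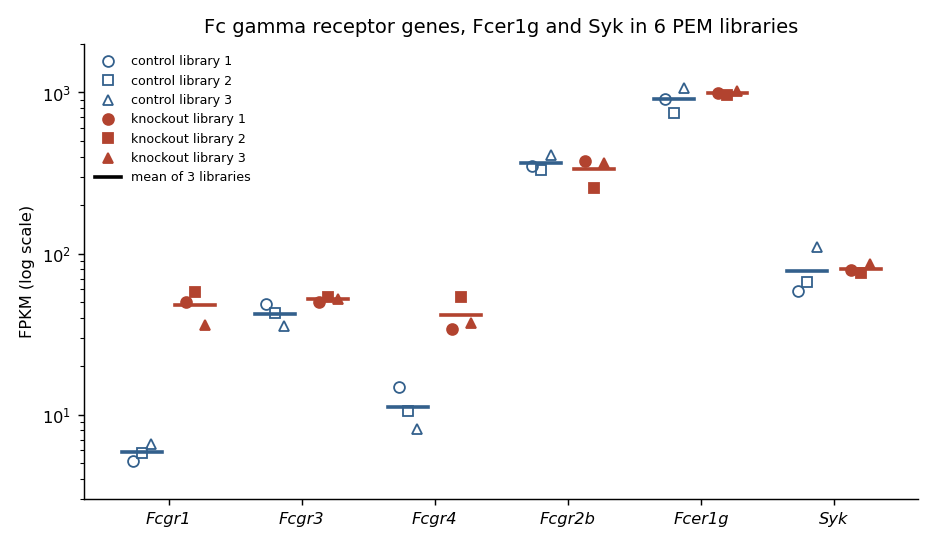
FPKM (log scale) of the 6 genes in each library, with open symbols for control and filled symbols for knockout libraries and bars for the mean of 3 libraries. Fcgr1 and Fcgr4 stand clear of their controls, whereas Fcgr2b, Fcer1g and Syk overlap between the groups.

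Over all tested genes, 660 passed an adjusted p of 0.05 with limma, which is 7.31% of 9030, divided into 232 higher (2.57%) and 428 lower (4.74%). All 3 knockouts exceeded all 3 controls for 11.1% of the genes and lay below them for 23.0%. Of the 6 members, 2 (Fcgr1 and Fcgr4) were among the genes called higher, 3 had all knockouts above all controls and 0 had all below. These counts are given as description only, because the members were selected on this contrast. The median log2 difference over all tested genes was -0.11 and became 0.01 after rescaling by the median of ratios, which turned the calls into 343 higher and 326 lower, and voom on the recovered reads gave 277 higher and 306 lower. In the plot of the members among all genes, Fcgr2b lies near this median, while Fcgr1 and Fcgr4 lie in the upper tail. In whole PEM preparations, fewer cells of one type and less RNA per cell cannot be told apart, and the part of the marker differences above in these values was not tested.

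**Figure D2:**
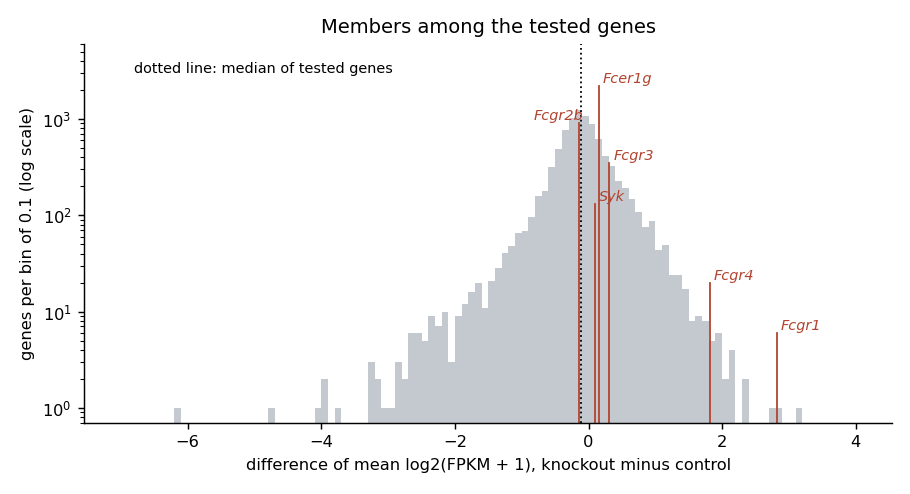
Histogram of the difference of mean log2(FPKM + 1), knockout minus control, over 9030 tested genes in bins of 0.1 (log count axis), with a labelled line for each of the 6 genes and a dotted line at the median of -0.11. The heights of the red lines carry no value. Fcgr1 at 2.82 and Fcgr4 at 1.82 lie in the upper tail, and the other 4 lie between -0.14 and 0.31.

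FPKM is scaled by gene length, so an order of levels between genes depends on the lengths used. These were 12173 bases for Syk, 2799 for Fcgr3 and 1598 for Fcgr2b. Their protein-coding transcripts (GENCODE) held 6073, 1627 and 3708 distinct 50-base runs, so the lengths are uncertain. The order, shares and ratios below hold for these lengths only, whereas the level of the same gene between groups does not depend on them. In the control group the order of the mean FPKM was Fcer1g, Fcgr2b, Syk, Fcgr3, Fcgr4 and Fcgr1, and the ranges of neighbours in this order did not overlap. In the knockout group Fcer1g, Fcgr2b and Syk kept the first 3 places with ranges apart, but the means of Fcgr3 (52.1 FPKM), Fcgr1 (47.9 FPKM) and Fcgr4 (41.6 FPKM) followed with overlapping ranges. The means of the activating receptors thus spanned 5.83 to 42.2 FPKM in the control group and 41.6 to 52.1 FPKM in the knockout group. Fcgr1 relative to Fcgr4 was 1.48, 1.07 and 0.969 in the knockout libraries and 0.350, 0.550 and 0.804 in the control libraries.

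The summed FPKM of the activating receptors Fcgr1, Fcgr3 and Fcgr4 was 134, 165 and 125 in knockout libraries 1 to 3 and 68.5, 58.7 and 50.3 in control libraries 1 to 3. Divided by Fcgr2b, it gave 0.356, 0.651 and 0.342 in the knockout and 0.195, 0.177 and 0.124 in the control libraries. All knockouts exceeded all controls in this ratio, which averaged 0.450 ± 0.175 and 0.165 ± 0.0371 (SD, n = 3 each), with a difference of 1.41 between the means of its log2 values. Knockout library 2 was the highest, through its high Fcgr1 and Fcgr4 and its low Fcgr2b, and without it the log2 difference was 1.11. The ratio of Fcgr3 alone to Fcgr2b overlapped between the groups, at 0.133, 0.212 and 0.142 in the knockout and at 0.138, 0.128 and 0.0873 in the control libraries.

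As shares of the 4 receptors, Fcgr2b took 73.8%, 60.6% and 74.5% of the summed FPKM in the knockout and 83.7%, 85.0% and 89.0% in the control libraries. Fcgr1 took 9.80%, 13.7% and 7.32% in the knockout and 1.23%, 1.47% and 1.44% in the control libraries. The share of Fcgr3 overlapped between the groups, with means of 11.1% and 10.1%. Among the activating receptors alone, Fcgr3 made up a mean of 71.3% in the controls and 37.2% in the knockouts, while Fcgr1 made up 10.1% and 33.6% and Fcgr4 18.5% and 29.2%. The sum of all 4 receptors, 512, 419 and 493 FPKM in the knockout and 420.0, 391 and 458 FPKM in the control libraries, overlapped between the groups. Fcer1g exceeded the summed activating receptors in every library, 7.41, 5.87 and 8.09 times in the knockout and 13.3, 12.6 and 21.1 times in the control libraries. All of these quantities are made from the values that chose the genes and describe transcripts, not surface protein.

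**Figure D3:**
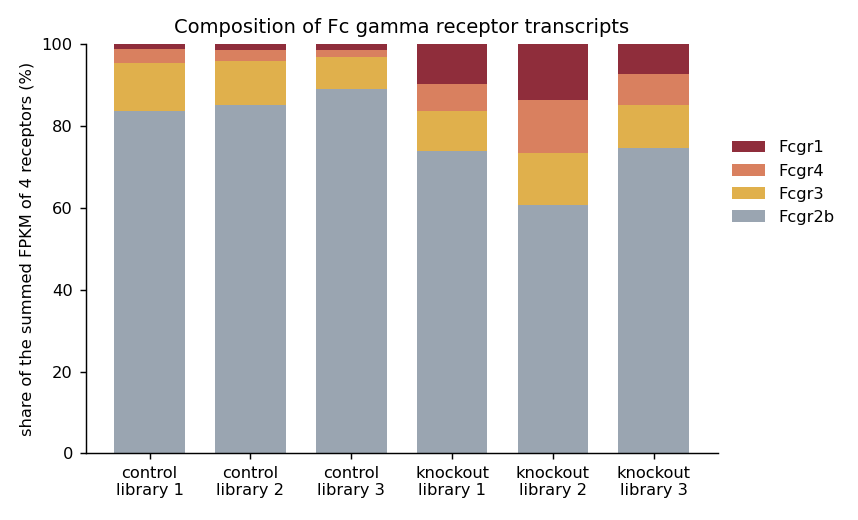
Share of each receptor gene in the summed FPKM of Fcgr1, Fcgr2b, Fcgr3 and Fcgr4 (%), 1 stacked bar for each of 6 libraries. Fcgr2b takes 83.7% or more in each control library and at most 74.5% in each knockout library, and the Fcgr1 part widens from 1.23% to 1.47% in the controls to 7.32% to 13.7% in the knockouts.

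Fcgr2b, Fcgr4, Fcgr3 and Fcer1g lie in this order in one stretch of chromosome 1 in the GRCm38.p6 annotation, and Fcgr1 and Syk lie on chromosomes 3 and 13. Of the genes listed between them, Sdhc, a subunit of respiratory complex II, ranged from 58.8 to 67.1 FPKM in the knockouts and from 61.0 to 62.8 FPKM in the controls (log2 fold change -0.01, adjusted p = 0.969, limma). Tomm40l, a homologue of a mitochondrial import channel, differed by 0.05 on the log2 scale (adjusted p = 0.857, limma). The other 4 listed genes in this stretch stayed under 1 FPKM in every library. Of the tested genes in this stretch, Fcgr4 thus had the largest difference.

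The 5 genes whose profile over the 6 libraries lay nearest to that of Fcgr1, by the root mean square difference of centred log2(FPKM + 1) values, were Spp1 (0.358), Atp6v0d2 (0.374), Cd109 (0.400), Npy (0.416) and Tagap (0.466). Spp1 encodes osteopontin and Atp6v0d2 a subunit of the vacuolar proton pump. Spp1 measured 1476, 2310.3 and 1527 FPKM in the knockouts against 132, 180.4 and 312 FPKM in the controls. Atp6v0d2 measured 45.8, 66.0 and 42.3 FPKM in the knockouts against 10.4, 11.3 and 10.8 FPKM in the controls, and like Fcgr1 varied little among the controls. Fcgr4 came at place 16 (0.616), and Fcgr3, Syk, Fcer1g and Fcgr2b came much further down, at places 1296, 2592, 1961 and 5247. Genes near Fcgr1 in this measure necessarily separate the groups, as Fcgr1 does, and nothing about shared control follows from it.

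**Figure D4:**
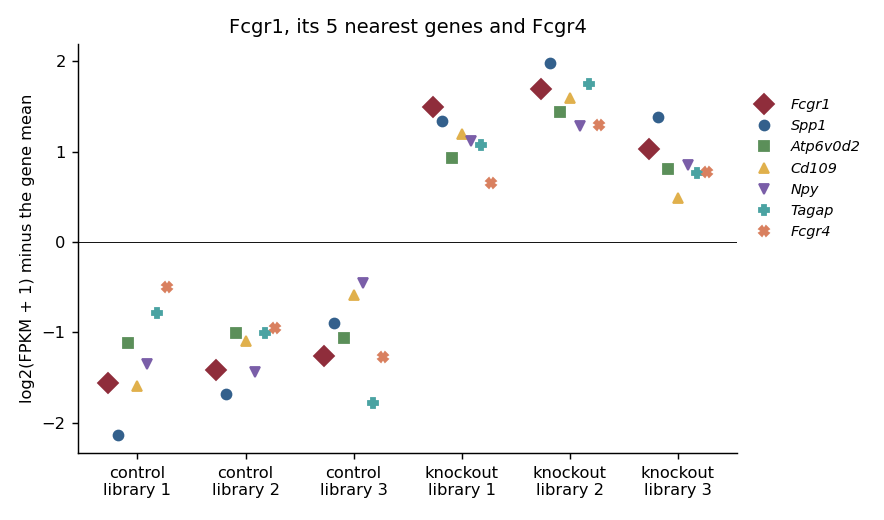
log2(FPKM + 1) minus the mean of the gene over 6 libraries, for Fcgr1, the 5 genes nearest to it and Fcgr4, with 1 symbol for each gene in each library. All 7 genes are below 0 in the control and above 0 in the knockout libraries, and all 7 are highest in knockout library 2.

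The rest of the pathway was examined through 9 lists of genes that work with the receptors, 216 genes in all without the members, of which 176 were tested. With limma, 8 passed as higher and 6 as lower in the knockouts, 8.0% of those tested beside 7.31% of all genes, and the median log2 fold change was 0.04 beside -0.11 over all genes. The counts became 14 and 4 after rescaling and 11 and 3 with voom. They depended on single libraries. Leaving out control library 2 left 0 calls with limma (33 at an unadjusted p under 0.05), leaving out knockout library 1 left 1 higher and 1 lower, leaving out knockout library 2 left 3 and 1, and leaving out control library 3 gave 21 and 14. C3ar1 and Vsig4 passed without knockout library 1, and these with Irf1 and Trem2 without knockout library 2. Without knockout library 3, the calls of Fcrl1 and Fcrla were among those lost, and without control library 1 those of Fcrl1, Pilra and Sphk1.

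Among inhibitory receptors and phosphatases, 2 of 27 tested genes were higher and 2 lower. The counts were 3 higher and 2 lower with the replicate block, which added Ptpn18 as higher (adjusted p = 0.0495) and Pecam1 as lower (0.0442), 2 higher and 1 lower with voom, 3 higher and 1 lower after rescaling, and 5 higher and 4 lower at an unadjusted p under 0.05 (limma). Inpp5d, which encodes SHIP1, the phosphatase that FcγRIIB recruits, measured 1.64, 1.93 and 3.10 FPKM in the knockouts against 8.77, 6.05 and 5.75 FPKM in the controls. The groups did not overlap, and Inpp5d fell by 1.29 on the log2 scale (standard error 0.22, adjusted p = 0.0205, limma). Its call was lost without knockout library 1, knockout library 2 or control library 2. The part of the marker differences above in its level was not tested. Pilra, an inhibitory receptor of myeloid cells, fell from 89.3 ± 20.2 to 42.3 ± 13.8 FPKM (SD, n = 3 each; adjusted p = 0.0499, limma), and was no longer past the threshold under the replicate block (adjusted p = 0.0598, limma). Clec12a, an inhibitory C-type lectin, rose from 14.1 ± 3.59 to 35.9 ± 2.58 FPKM (SD, n = 3 each; adjusted p = 0.0144, limma). Cd33, a sialic acid-binding lectin, rose from 9.22 ± 0.601 to 16.2 ± 2.40 FPKM (SD, n = 3 each; adjusted p = 0.0294, limma). Ptpn6, which encodes the phosphatase SHP-1, was at a mean of 87.1 FPKM in the knockout and 75.2 FPKM in the control group (adjusted p = 0.383, limma).

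Among ITAM adaptors and the receptors that pair with them, 2 of 19 tested genes were higher and 0 lower. At an unadjusted p under 0.05, 4 were higher and 7 lower (limma). The counts were 2 higher and 2 lower with the replicate block, 3 and 0 with voom, and 4 and 0 after rescaling. Trem2, a lipid-sensing receptor that signals through the adaptor DAP12, rose from 69.2 ± 6.42 to 195.6 ± 36.8 FPKM (SD, n = 3 each; log2 fold change 1.47, adjusted p = 0.00913, limma). Cd300lf, a lipid-binding receptor of the CD300 family, rose from 11.0 ± 1.69 to 40.8 ± 11.6 FPKM (SD, n = 3 each; log2 fold change 1.77, adjusted p = 0.0118, limma). Tyrobp, which encodes DAP12, the ITAM adaptor most like the FcR gamma chain in its role, measured 615, 679.7 and 708 FPKM in the knockouts against 618, 549 and 616 FPKM in the controls (log2 fold change 0.17, adjusted p = 0.419, limma). Clec4n, which encodes Dectin-2, a lectin that pairs with the FcR gamma chain, measured 66.2, 21.6 and 107.7 FPKM in the knockouts against 172, 282.9 and 410.5 FPKM in the controls. Its adjusted p was 0.0555 with limma and 0.0313 with the replicate block.

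The kinases and effectors on either side of Syk gave few calls. Of 8 tested Src family kinases and regulators, 0 passed with limma, 1 had an unadjusted p under 0.05 and 0 passed with voom. Lyn, which phosphorylates the ITAM, had a log2 fold change of 0.15 with limma (adjusted p = 0.55). Of 31 genes acting downstream of Syk, 0 passed with limma, 9 had an unadjusted p under 0.05 (6 higher and 3 lower), and 2 were higher with voom and with the replicate block. Of 30 actin genes of the phagocytic cup, 0 passed with limma, 2 had an unadjusted p under 0.05 and 0 passed with voom. Of the 68 further tested genes that the deposited table assigns to the KEGG pathway of Fc gamma receptor phagocytosis, 2 were higher and 1, Inpp5d again, was lower. Sphk1, a sphingosine kinase, rose from 1.86 ± 0.407 to 6.69 ± 2.87 FPKM (SD, n = 3 each; adjusted p = 0.0376, limma).

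Of 22 tested regulators of Fc receptor expression, 1 was higher and 0 lower, with 1 lower at an unadjusted p under 0.05 and 0 with voom. With the replicate block 2 were higher, since Socs3, a feedback inhibitor of cytokine signalling, passed as well (271 ± 93.0 against 115 ± 66.9 FPKM, SD, n = 3 each; adjusted p = 0.139 without and 0.0219 with the block, limma). Irf1, an interferon-induced transcription factor, measured 187, 179.8 and 162 FPKM in the knockouts against 75.3, 65.6 and 76.7 FPKM in the controls. It rose by 1.27 on the log2 scale (standard error 0.13, adjusted p = 0.00651, limma). Spi1, which encodes PU.1, was at a mean of 239 FPKM in the knockout and 222 FPKM in the control group (adjusted p = 0.685, limma).

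Among the other Fc receptors, 0 of 6 tested genes were higher and 3 lower, with 1 higher at an unadjusted p under 0.05 and 0 higher with voom. Of the 3 lower calls, voom left 1, that of Fcmr, and rescaling left 2. The lower ones are genes of B cells. Fcmr, the IgM receptor, fell from 6.18 ± 2.79 to 0.486 ± 0.157 FPKM (SD, n = 3 each; adjusted p = 0.0117, limma). Fcrla and Fcrl1, Fc receptor-like genes, fell by 1.96 and 0.97 on the log2 scale (adjusted p = 0.0332 and 0.0442, limma). The B cell marker sums stood at 11.8 to 13.0 against 39.6 to 144 FPKM beside them, and Fcmr is itself on that marker list. Fcer1a, the IgE-binding chain that uses Fcer1g in mast cells, was listed at 0, 0.023 and 0 FPKM in the knockouts beside 0.737, 1.20 and 0.295 FPKM in the controls, and did not reach the minimum for testing. Fcgrt, which encodes the neonatal Fc receptor, gave a log2 value of 0.41 (adjusted p = 0.326, limma).

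**Figure D5:**
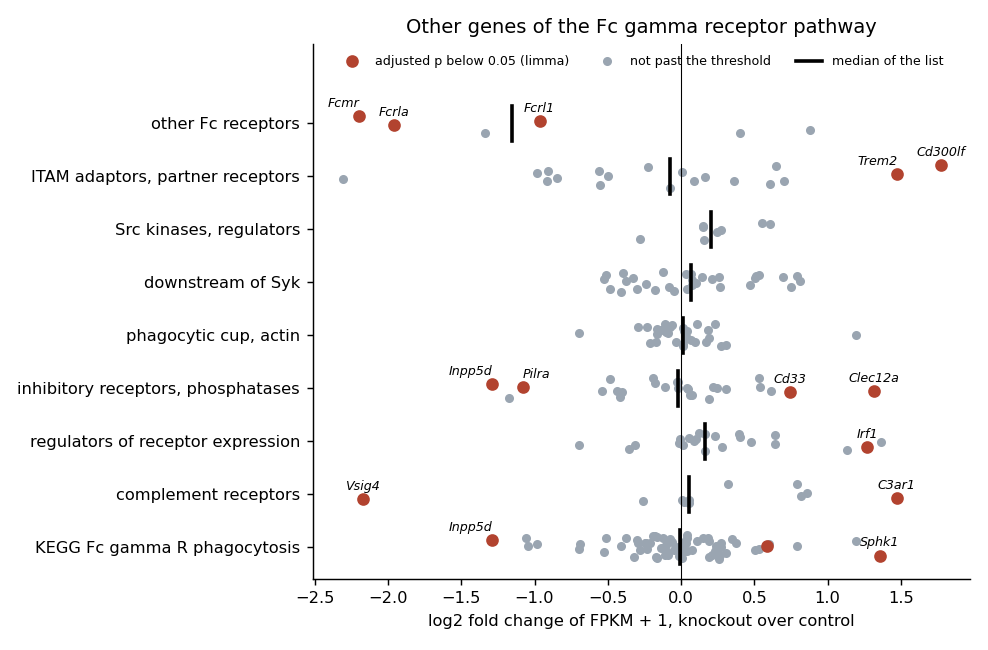
log2 fold change of FPKM + 1, knockout over control, of each tested gene in 9 pathway lists, with red points for genes past an adjusted p of 0.05 (limma), named where the log2 fold change is at least 0.7 either way, grey points for the others and a black bar for the median of the list. Medians lie near 0 except for the other Fc receptors at -1.15, and 0 genes pass among Src kinases, genes downstream of Syk and actin genes. The vertical scatter within a list carries no value.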

How the data were processed

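RNA of 6 PEM libraries (3 knockout, 3 control) was analysed from 1 deposited table. The authors deposited FPKM per gene and library, and, as signal columns, group means of read counts divided by DESeq2 size factors. The table also holds the authors' fold changes, p-values and q-values, which were not used. The submitters' processing notes name the build mm9, and the aligner, the counter and their settings are not given in the sources used here. No coordinates of that build were used, and promoters came from RefSeq (GRCm38.p6).

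Dividing out gene length and depth with the help of the group means gave back the reads behind the FPKM (100% whole within 0.01 reads), in totals of 36170767 to 42217558 per library. The 10 most abundant genes took 9.34% to 12.5% of the reads. The test was limma (version 3.58.1 under R 4.3.3, lmFit and eBayes with trend) on log2(FPKM + 1), for the 9030 genes that averaged at least 1 FPKM in one group, with two-sided p-values adjusted by the Benjamini-Hochberg method and a threshold of 0.05. Fold changes on this scale understate those of low genes. With 3 libraries against 3, an exact permutation test cannot give a two-sided p below 0.1.

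The members and lists were chosen with earlier results of these data known. Named genes are the members, Timd4, Lyz2, at most 4 called genes per list and direction, the genes nearest to each member in profile, and markers. Other genes, such as Tyrobp and Sdhc, were added with their values known, and some listed genes are not reported here. The deviations of same-numbered libraries from their group means correlated at 0.11, 0.11 and 0.30 (from -0.33 to 0.29 between other numbers). Knockout library 2 with control library 1, at 0.29, came near the highest of these, and no label states a pairing. The check cannot show that same-numbered libraries belong together, so the block on the replicate number is given only as an alternative fit. Alternatives were other filters on low values, a pseudocount of 0.1, the block, rescaling by the median of ratios, voom on the recovered reads with TMM factors, a log2 fold change of at least 1 for the lists, and each library left out in turn.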

Additional observations from a re-analysis of the deposited data

How the results depend on the processing

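Fcgr1, Fcgr3 and Fcgr4 kept a positive log2 difference under every alternative run. With libraries left out in turn, the ranges were 2.68 to 3.01, 0.19 to 0.41 and 1.62 to 2.03. The log2 difference of the activating to inhibitory ratio ranged from 1.11 to 1.57. Leaving out a library could not change these signs, since every knockout lay above every control in each of these values. Fcgr1 was also chosen as a stable increase, so its stability here is no support. With voom, the difference of Fcgr1 was 3.14, a fit that adds no pseudocount of 1 FPKM and rescales the libraries. Over all alternatives Fcgr2b and Syk changed sign (-0.25 to 0.04 and -0.09 to 0.36), and Fcer1g ranged from 0.02 to 0.30. The count over all genes ranged from 8 to 1278 when libraries were left out in turn (control library 2 left out gave 8, knockout library 1 gave 30, knockout library 2 gave 63 and control library 3 gave 1278), and was 446 without a filter on low values, 709 with at least 10 reads in every library, 692 with a pseudocount of 0.1, 669 after rescaling and 583 with voom. The pathway genes called higher were 14 after rescaling and from 0 to 21 with libraries left out, and those called lower were 3 with voom and from 0 to 14 with libraries left out. Counting pathway calls past a size of 1 on the log2 scale left 6 higher and 5 lower. The cause was not tested. Of the 14 pathway genes called, 14 remained with a pseudocount of 0.1, 9 without a filter on low values, 11 with at least 10 reads in every library, 12 after rescaling, 12 with the replicate block and 10 with voom; rescaling ended the calls of Fcrl1 and Pilra, and voom those of Fcrl1, Fcrla, Pilra and Sphk1. Under the replicate block the calls numbered 855 (352 higher, 503 lower), 12 and 9 of them pathway genes, and of the 14 it ended 2, Pilra among them. Calls of C3ar1 and Vsig4 were lost only without control library 2. With 3 libraries in a group, 1 library can set a call. In the controls, Fcgr1 rests on 527 to 616 reads per library.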

Other observations

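Complement receptors are the other main route by which macrophages take up opsonised particles. The list of this name also holds the C1q genes, Calr and C3ar1, so its counts are not of that route alone. It gave 1 higher and 1 lower call among 11 tested genes. With the replicate block 2 were higher, since Cd93 passed as well (adjusted p = 0.0521 without and 0.034 with the block, limma). C3ar1, the receptor for the complement fragment C3a, measured 101, 115 and 105 FPKM in the knockouts against 42.4, 35.8 and 35.8 FPKM in the controls (log2 fold change 1.47, adjusted p = 0.00494, limma). Vsig4, a receptor for C3b and iC3b carried by resident macrophages, averaged 1.39 ± 0.566 FPKM in the knockouts against 9.65 ± 1.58 FPKM in the controls (SD, n = 3 each; log2 fold change -2.17, adjusted p = 0.00547, limma). Vsig4 is also on the list of large peritoneal macrophage markers, of which 6 of 9 tested genes were lower. Itgam and Itgb2, the chains of complement receptor CR3, had log2 fold changes of -0.26 and 0.05 (adjusted p = 0.369 and 0.824, limma).

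The genes nearest in profile to Fcgr4 were Il15ra (root mean square difference 0.218) and Slamf9 (0.223). Il15ra, the high-affinity receptor chain for interleukin 15, was at 19.8 FPKM or more in each knockout and at 8.90 FPKM or less in each control library. The genes nearest to Fcgr3 were Pgap2 and Pecr, to Fcgr2b Specc1l and Srrd, to Fcer1g Ubtd1 and Ddx41, and to Syk Tnpo2 and Napa. The log2 fold changes of these 8 genes lay between -0.12 and 0.29, with an adjusted p of 0.238 or more (limma).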
